A study of Mus musculus with 16 samples.

Results

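Matrix metalloproteinases (MMPs) and the tissue inhibitors of metalloproteinases (TIMPs) were followed in spinal cord after injury. The 10 genes were taken by symbol, 6 proteases (Mmp2, Mmp12, Mmp14, Mmp15, Mmp16 and Mmp17) and 4 inhibitors (Timp1, Timp2, Timp3 and Timp4), out of 24411 gene symbols in the deposited counts and TPM (transcript abundance scaled for gene length and library). All 10 were in the files. The study asked how delayed atorvastatin changes the cord transcriptome after spinal cord injury (SCI), with bulk RNA-seq of 16 mice. All were female C57BL/6J mice. In the SCI + Atorvastatin group (7 mice) and the SCI + Vehicle group (7 mice) the thoracic cord was compressed laterally to 0.25 mm at 12 wk of age under xylazine and ketamine. Daily injections began 2 wk post-injury and lasted 4 wk, with atorvastatin at 10 mg/kg in dimethyl sulfoxide, polyethylene glycol, Tween and saline, or with that solution alone. The Uninjured Control group (2 mice) had neither the injury nor a treatment, so injury, surgery and injections cannot be told apart in a comparison with it, nor can age, since by the study's methods these mice were younger at isolation than the SCI mice. A piece of cord 5 mm long around the injury site, or the same level of the uninjured cord, was taken 6 wk post-injury according to the labels. The labels age all mice to 12 wk, and the study's methods give another day of isolation and another age for the Uninjured Control mice.

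Metalloproteinases are zinc-dependent enzymes that cut collagens, elastin, laminin and many cell surface proteins. They are made as inactive precursors. Mmp2 is a secreted gelatinase, Mmp12 is the elastase of macrophages, and Mmp14, Mmp15, Mmp16 and Mmp17 are held at the cell membrane. TIMPs bind the active site and block it, and Timp2 also helps Mmp14 to activate the precursor of Mmp2. In injured cord the metalloproteinases are known for opening the barrier between blood and cord in the first days and for remodelling of the scar and of myelin later.

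The feature that makes the 6 proteases a family can be read in their coding sequences. Each holds 1 stretch of 33 bases that encodes the zinc-binding site, in exon 8 of 13 in Mmp2 and in exon 5 of 10 in the other 5 genes, on the plus strand of GRCm38. The 3 histidine codons that bind the zinc are in capitals, from the GENCODE M21 transcripts.
Mmp2 (chr8:92839279-92839311): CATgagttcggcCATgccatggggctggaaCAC
Mmp12 (chr9:7352914-7352946): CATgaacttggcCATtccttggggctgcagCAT
Mmp14 (chr14:54437627-54437659): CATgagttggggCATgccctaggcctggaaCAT
Mmp15 (chr8:95368585-95368617): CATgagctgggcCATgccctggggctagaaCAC
Mmp16 (chr4:18051748-18051780): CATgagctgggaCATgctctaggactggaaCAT
Mmp17 (chr5:129596597-129596629): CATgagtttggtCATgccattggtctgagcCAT
Over the 15 pairs of genes, 22 to 29 of the 33 bases were equal. Mmp14 and Mmp16, like Mmp2 and Mmp15, shared 29 of 33, and Mmp15 and Mmp17 shared the fewest.

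Promoters are shown for Mmp12 and Timp1, which had no counts in the uninjured cord, and for Mmp14, which was detected in every mouse. RefSeq gave a window for 7 of the 10 genes (GRCm38.p6). Each line holds the 120 bases before a start site, with matches to the searched motifs in capitals.
Mmp12 (chr9:7347254-7347373, plus strand): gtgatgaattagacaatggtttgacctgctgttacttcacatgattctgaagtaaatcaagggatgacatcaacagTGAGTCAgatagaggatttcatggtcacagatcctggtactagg
Timp1 (chrX:20870046-20870165, plus strand): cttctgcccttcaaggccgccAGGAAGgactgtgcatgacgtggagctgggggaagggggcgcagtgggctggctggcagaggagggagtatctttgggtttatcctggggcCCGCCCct
Mmp14 (chr14:54431478-54431597, plus strand): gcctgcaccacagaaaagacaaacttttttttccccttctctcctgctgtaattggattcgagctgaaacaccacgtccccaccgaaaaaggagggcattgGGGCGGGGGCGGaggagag
The 4 motifs were searched on both strands in the 250 bases before each start. The AP-1 motif (TGANTCA) was in 6.75% of 32851 windows of all genes, and among the members it had 1 match, 44 to 38 bases before the Mmp12 start printed above. The GC box (GGGCGG) was in 32.7% of windows and in those of Mmp14, Mmp15, Timp1, Timp2 and Timp3. The Ets motif (AGGAAG) was in 29.5% of windows and in those of Mmp12, Mmp14, Timp1, Timp3 and Timp4, and TATAAA was in 12.4% of windows and in no window of a member. G and C made up 39.6% and 40.0% of the bases at the 2 Mmp12 starts and 68.0% at Timp2, with a median of 52.4% over all windows. These matches describe the letters only.

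Depth and cell make-up set the frame for all values. The libraries held 14823292 to 25579826 counts on genes, and SCI + Vehicle replicate 4 was the smallest. Both Uninjured Control libraries had counts in fewer genes (12356 and 12732) than the SCI libraries (16399 to 19338) at similar totals. Summed levels of 7 neuron and 6 oligodendrocyte markers were high in all 16 libraries, as the tissue label asks. In the Uninjured Control mice 7 liver genes summed to 648 and 4051 CPM (counts scaled to library size), but to no more than 6.44 CPM in the SCI mice. The 6 skeletal muscle markers reached 1568 CPM in SCI + Atorvastatin replicate 2 and 346.9 CPM in SCI + Vehicle replicate 3, and 115 CPM or less in all other libraries. The parts that liver and muscle RNA have in the results were not tested. Against the Uninjured Control group, by the call rule given below, 4 of 6 astrocyte markers were called higher in both SCI groups. With atorvastatin 1 was called lower. Of the 6 oligodendrocyte markers 1 was called lower with vehicle and 3 with atorvastatin. Of 6 endothelial markers 0 and 1 were called higher, and no muscle marker was called. Of all tested genes 19.9% were called higher and 9.91% lower with vehicle, and 24.9% and 14% with atorvastatin.

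Genes were tested on counts with edgeR's quasi-likelihood test when their mean TPM was above 1 in at least 1 group, which 16091 genes passed. Against the Uninjured Control group a gene was called at a log2 fold change beyond 0.32 in either direction and a Benjamini-Hochberg adjusted p below 0.05. All 10 members were tested, of which Mmp2, Mmp12 and Timp1 passed the filter through the SCI mice alone and so had to differ. In SCI + Vehicle vs. Uninjured Control, 6 members were called, 4 higher (Mmp2, Mmp12, Timp1 and Timp2) and 2 lower (Mmp15 and Mmp17), where 29.8% of all tested genes were called, 19.9% higher and 9.91% lower. With atorvastatin against the same controls, 9 were called, with Mmp14, Mmp16 and Timp3 added on the higher side, where the call rate over all genes was 38.9%, 24.9% higher and 14% lower. The median log2 fold change was 0.39 over the members and 0.17 over all tested genes with vehicle, and 0.61 against 0.21 with atorvastatin. The members' medians count the 3 that had to differ, and so are a description only. The 2 Uninjured Control mice are shared between these comparisons. In CPM, all SCI + Vehicle mice were above both Uninjured Control mice for 5 members and below them for 0, where 24.8% and 10.7% of all genes were so. For SCI + Atorvastatin these counts were 7 and 0, beside 29.8% and 14.2% of all genes. Both counts of members above include Mmp2, Mmp12 and Timp1, which had to differ, and so are a description only. The others above with vehicle were Mmp16 and Timp2. The share of all genes so placed was not taken in TPM. On log2(TPM + 1) the median log2 fold change over all tested genes was 0.49 with vehicle and 0.52 with atorvastatin. With voom and a weight for each group no member was called in either comparison, and of all genes 0.814% and 0.901% were.

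**Figure D1:**
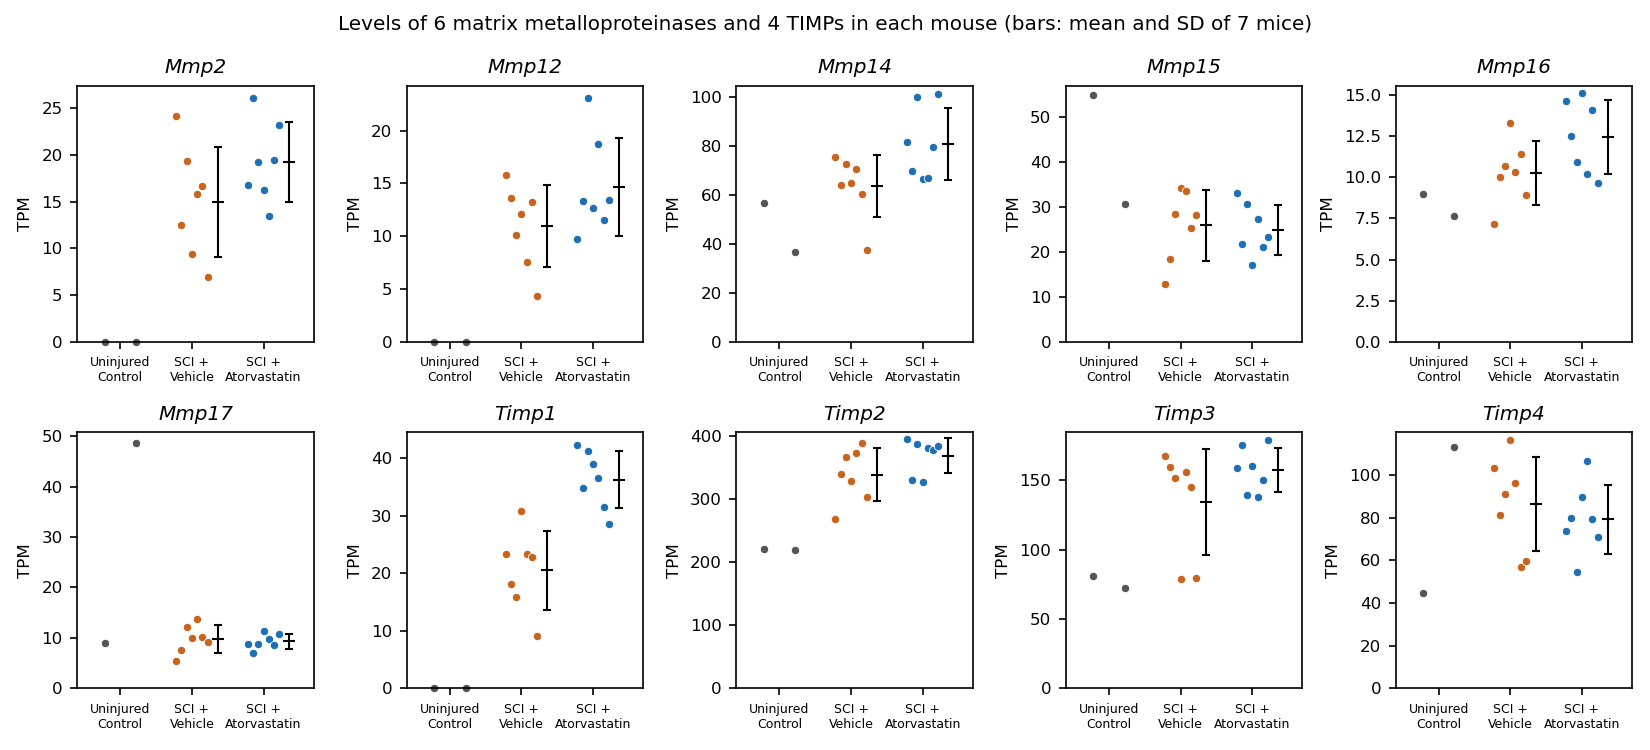
TPM of each member in each mouse, by group, with the mean and SD of the 7 mice beside the SCI groups (y axes start at 0). Mmp2, Mmp12 and Timp1 are at 0 in both Uninjured Control mice and above 0 in all 14 SCI mice, while the 2 Uninjured Control mice lie far apart for Mmp17 (9.01 and 48.59 TPM) and Timp4 (44.5 and 112.91 TPM).

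Both secreted proteases among the members were without counts in the Uninjured Control libraries, as was Timp1. Mmp2, the gelatinase made mostly by mesenchymal cells, had 0 TPM in both Uninjured Control mice, 6.93, 15.81 and 24.15 TPM as the lowest, median and highest value of the SCI + Vehicle mice, and 13.52, 19.26 and 26.1 TPM in the SCI + Atorvastatin mice. Every SCI mouse was thus above both Uninjured Control mice. In counts, the SCI mice had 143 to 710 and the Uninjured Control mice 0, which allows up to 0.148 and 0.134 CPM in these libraries. That limit of 3 counts per library averages 0.143 CPM after TMM scaling. The mean CPM of the SCI + Vehicle mice was at least 119-fold higher than it, and that of the SCI + Atorvastatin mice at least 161-fold. The edgeR fits gave adjusted p = 0.000148 and 1.34e-05. These p-values belong to the fitted changes and not to the limit, and as Mmp2 had to differ they support nothing. These limits cover counting error only, since the reads carry no molecular identifiers. Adam12, for example, had 0 counts in 1 Uninjured Control mouse and 183 in the other. The folds given as at least so high, for Mmp2, Mmp12 and Timp1, are thus bounds under counting error alone. Neither Uninjured Control mouse had a count for 2433 of the tested genes (15.1%), and exactly 1 of them had none for 2532 genes.

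Mmp12, the macrophage elastase, followed the same pattern at a lower level. Its TPM was 0 in both Uninjured Control mice, 4.37, 12.06 and 15.76 (lowest, median, highest) with vehicle and 9.69, 13.37 and 23.07 with atorvastatin. The groups of injured and uninjured mice did not overlap. Over the same limit, the mean CPM was at least 105-fold higher in the SCI + Vehicle mice and at least 149-fold in the SCI + Atorvastatin mice. The adjusted p of the fitted changes (0.000145 and 3.21e-05, edgeR) support nothing, since Mmp12 had to differ. Mmp12 overlaps Mmp1b on the opposite strand by 157 exon bases, and Mmp1b was at 0 TPM in every mouse. Among 8 microglia or macrophage markers, none was called lower. With vehicle 5 were called higher and with atorvastatin 6, beside 19.9% and 24.9% of all genes. Their sum was 162 and 219 CPM in the Uninjured Control mice, 1270 to 1690 CPM with vehicle and 1428 to 2061 CPM with atorvastatin. In whole tissue, more cells of a type and more RNA per cell cannot be told apart, and the part of these cells in the result was not tested.

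Of the membrane-type proteases, Mmp14 was the most abundant. This activator of Mmp2 and collagenase was at 56.83 and 36.71 TPM in the Uninjured Control mice, at 37.61, 64.94 and 75.46 TPM with vehicle and at 66.33, 79.65 and 101.18 TPM with atorvastatin. In TPM all SCI + Atorvastatin mice, but only 6 of 7 SCI + Vehicle mice, were above both Uninjured Control mice. In CPM all SCI + Atorvastatin mice were again above both, but 5 of 7 SCI + Vehicle mice were above and 1 was below both. The log2 fold change was 0.59 (SE 0.183, adjusted p = 0.0281) with atorvastatin. With vehicle it was 0.26 (SE 0.265, adjusted p = 0.506), with a 95% interval from -0.33 to 0.84. Mmp14 was not called with atorvastatin when all 3 groups were in 1 fit. Without Uninjured Control replicate 2 the call with atorvastatin was lost (log2 fold change 0.40, adjusted p = 0.107).

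Mmp16, another membrane-type protease, was low in all groups. It had 8.95 and 7.67 TPM in the Uninjured Control mice, 7.13, 10.3 and 13.3 TPM with vehicle and 9.65, 12.49 and 15.14 TPM with atorvastatin. The SCI + Atorvastatin mice did not overlap with the Uninjured Control mice, and the SCI + Vehicle mice did in TPM but not in CPM. Its log2 fold change was 0.63 with atorvastatin (SE 0.203, adjusted p = 0.0324) and 0.38 with vehicle (SE 0.229, adjusted p = 0.237). Leaving out any of SCI + Atorvastatin replicates 1, 2, 4 or 6 moved the adjusted p to between 0.0556 and 0.0584.

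Mmp15 and Mmp17 were the members called lower, and both rest on unequal Uninjured Control mice. Mmp15 was at 54.86 and 30.58 TPM in these mice, at 12.86, 28.28 and 34.3 TPM with vehicle and at 17.13, 23.23 and 33.13 TPM with atorvastatin. Both SCI groups therefore reached above the lower of the Uninjured Control mice. The fitted fall was -0.96 with vehicle (SE 0.323, adjusted p = 0.0466) and -0.97 with atorvastatin (SE 0.286, adjusted p = 0.0215). Without Uninjured Control replicate 1 these values were -0.27 (adjusted p = 0.541) and -0.29 (adjusted p = 0.341), and the call with vehicle was also lost without any single SCI + Vehicle mouse.

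Mmp17 is tied to the membrane by a lipid anchor. The Uninjured Control mice had 9.01 and 48.59 TPM, from 260 and 1447 counts. The SCI mice had 5.48, 9.97 and 13.72 TPM with vehicle and 7.06, 8.89 and 11.33 TPM with atorvastatin, which is the level of Uninjured Control replicate 1. The log2 fold change was -1.50 with vehicle (SE 0.440, adjusted p = 0.0260) and -1.60 with atorvastatin (SE 0.421, adjusted p = 0.0129), but 0.09 and -0.01 without Uninjured Control replicate 2 (adjusted p = 0.848 and 0.979).

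**Figure D2:**
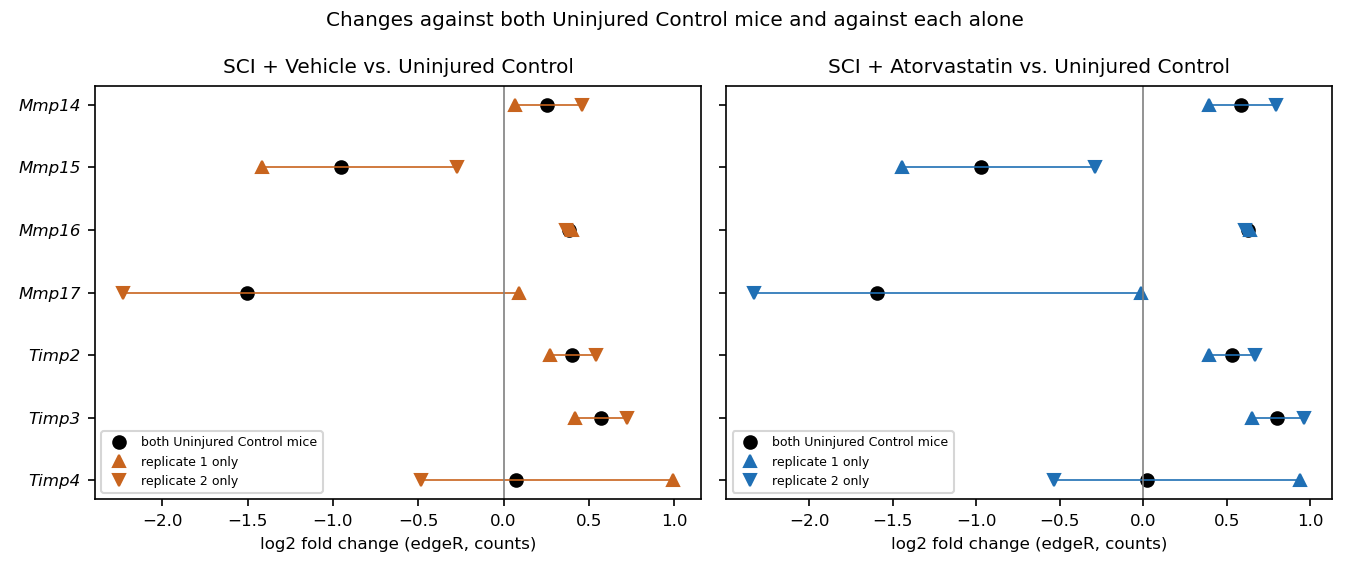
Log2 fold changes of the 7 members with counts in uninjured cord, against both Uninjured Control mice (black circles) and against each alone (triangles), for SCI + Vehicle on the left and SCI + Atorvastatin on the right. The 2 triangles lie farthest apart for Mmp17 (-2.23 and 0.09 with vehicle) and next for Timp4 (-0.48 and 1.00 with vehicle).

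Among the inhibitors, Timp1 was the member without counts in uninjured cord. Timp1 is a secreted inhibitor that rises with inflammation in many tissues. It had 0 TPM in both Uninjured Control mice, 9.04, 22.87 and 30.88 TPM with vehicle and 28.59, 36.55 and 42.35 TPM with atorvastatin. All 14 SCI mice were above the Uninjured Control mice, and 6 of 7 SCI + Atorvastatin mice were above every SCI + Vehicle mouse in TPM. The mean CPM was at least 55.0-fold higher than the limit of the Uninjured Control mice with vehicle, and at least 77.6-fold with atorvastatin. The adjusted p of the fitted changes (0.000197 and 1.91e-05, edgeR) support nothing, since Timp1 had to differ.

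Timp2 was the most abundant member in every mouse. It is made constitutively by many cells and partners Mmp14 in activating Mmp2. The Uninjured Control mice had 221.41 and 219.1 TPM, the SCI + Vehicle mice 269.02, 340.29 and 388.78 TPM and the SCI + Atorvastatin mice 327.92, 381.49 and 395.15 TPM. All SCI mice were above both Uninjured Control mice. The rise was small, with a log2 fold change of 0.40 with vehicle (SE 0.123, adjusted p = 0.0311) and 0.53 with atorvastatin (SE 0.112, adjusted p = 0.00398). The call with vehicle was lost without SCI + Vehicle replicate 2, 3 or 5 and without Uninjured Control replicate 2 (0.27, adjusted p = 0.182).

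Timp3, the inhibitor that stays bound to the matrix and also blocks Adam17, was at 80.79 and 72.28 TPM in the Uninjured Control mice. The SCI + Vehicle mice had 79.14, 151.8 and 167.3 TPM, and the SCI + Atorvastatin mice 138.23, 158.68 and 179.15 TPM. In TPM, 5 of 7 SCI + Vehicle mice and all 7 SCI + Atorvastatin mice were above both Uninjured Control mice. The log2 fold change was 0.80 with atorvastatin (SE 0.133, adjusted p = 0.000993) and 0.57 with vehicle (SE 0.306, adjusted p = 0.188). SCI + Vehicle replicates 4 and 7 were the low mice, with 143 and 160 CPM beside 272 to 333 CPM in the other 5. Without both, an alternative chosen after the data were seen, the value with vehicle was 0.77 (SE 0.132, adjusted p = 0.00471). Dropping the lowest mice had to raise this value, so that call supports nothing. In the same fit Mmp15, Mmp17 and Timp2 were no longer called.

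Timp4, an inhibitor known from brain and heart, was not called in either comparison. Its TPM was 44.5 and 112.91 in the Uninjured Control mice, 57.01, 91.06 and 116.29 with vehicle and 54.28, 79.27 and 106.56 with atorvastatin. The SCI mice thus lay mostly between the 2 Uninjured Control mice. The log2 fold change was 0.07 with vehicle (95% interval -0.68 to 0.82) and 0.02 with atorvastatin (-0.69 to 0.73). Against Uninjured Control replicate 1 alone Timp4 was called higher with vehicle (1.00, adjusted p = 0.0156) and atorvastatin (0.94, adjusted p = 0.00387), and against replicate 2 alone it was called lower with atorvastatin (-0.54, adjusted p = 0.0363).

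**Figure D3:**
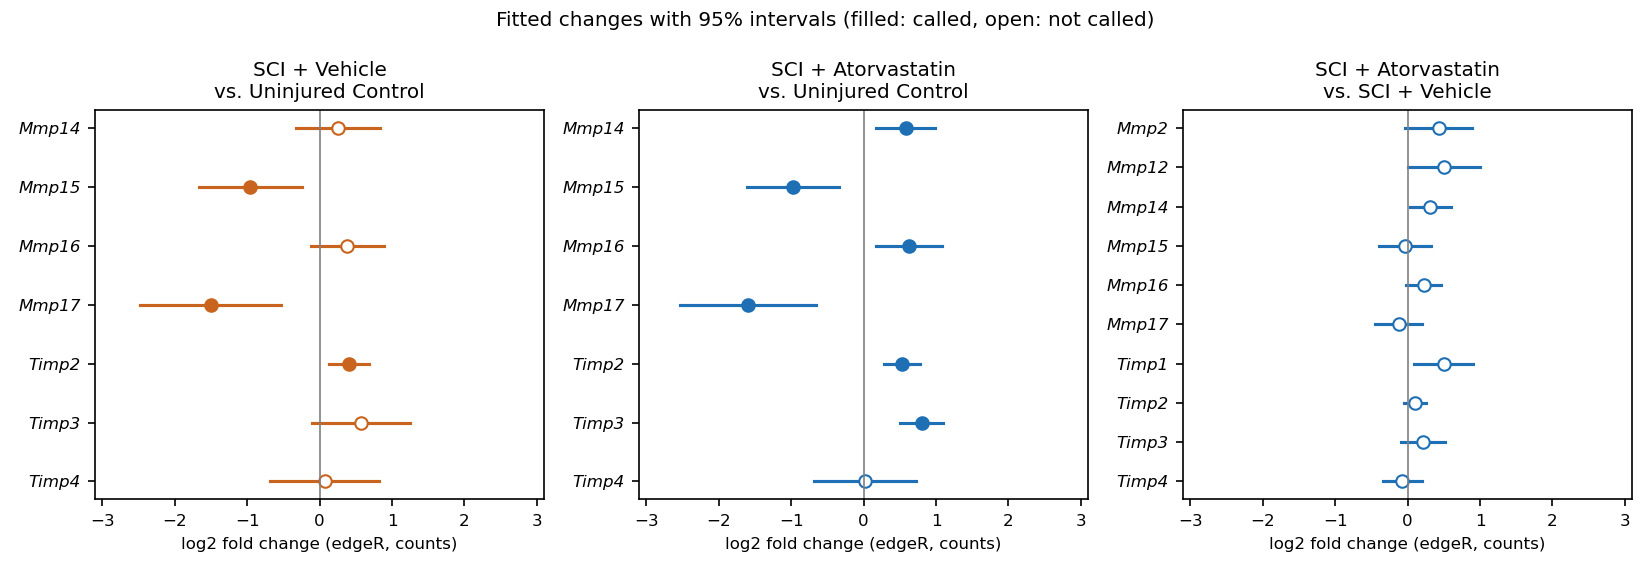
Log2 fold changes from counts with 95% intervals, filled where called and open where not, in the 3 comparisons. The panels against the Uninjured Control group leave out Mmp2, Mmp12 and Timp1, which have no counts there; in the right panel all 10 members are open.

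Of the inhibitor genes, 3 lie inside synapsin genes on the opposite strand. Timp1 (chrX:20870166-20874735) lies within Syn1 and shares no exon bases with it, Timp3 (chr10:86300372-86349506) lies within Syn3 and shares 1733, and Timp4 (chr6:115241892-115252205) lies within Syn2 and shares 90. The library kit keeps the strand, but the strand setting of the counting is not given in the sources used here. Syn2, a protein of synaptic vesicles, fell with vehicle (log2 fold change -0.82, adjusted p = 0.00276) and with atorvastatin (-0.93, adjusted p = 0.000677), while Syn3 had -0.44 and -0.45 (adjusted p = 0.0614 and 0.0695). Syn1 had -0.60 with vehicle (adjusted p = 0.110) and fell with atorvastatin (-0.84, adjusted p = 0.00432), and it was at 210.83 and 337.17 TPM in the Uninjured Control mice, where Timp1 had no counts. The part of shared reads in the values of Timp3 and Timp4 was not tested.

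Between the treatments no member was called at an unadjusted p below 0.001 and a log2 fold change beyond 0.32, a limit that 0.106% of the 16091 genes passed (17 genes, 0.087% higher and 0.0186% lower). No gene reached an adjusted p below 0.05, the smallest being 0.680. Timp1, Mmp14 and Mmp12 had an unadjusted p below 0.05, as did 7.03% of all genes. The fitted values were higher with atorvastatin for 7 members and lower for Mmp15, Mmp17 and Timp4, with a median log2 fold change of 0.22 where the median over all genes was -0.0014. DESeq2 also called no member. In CPM the 2 treatments overlapped for all 10 members, while 0.0559% of all genes were higher and 0.0311% lower in every SCI + Atorvastatin mouse.

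Timp1 had the smallest p of the members. Its CPM was 4.66, 7.69 and 11.55 (lowest, median, highest) with vehicle and 8.33, 10.93 and 13.01 with atorvastatin, so all 7 SCI + Atorvastatin mice were above the SCI + Vehicle median and 3 were above every SCI + Vehicle mouse. The log2 fold change on counts was 0.50 (SE 0.196, unadjusted p = 0.0193, adjusted p = 0.680). In TPM the means were 36.3 ± 5.02 with atorvastatin and 20.5 ± 6.94 with vehicle (SD, n = 7 each), and limma on log2(TPM + 1) gave 0.86 (SE 0.204, unadjusted p = 0.000807, adjusted p = 0.652), a call by the limit used here. With a pseudocount of 0.1 the value was 0.89 (unadjusted p = 0.000956). The TPM that corresponds to 1 CPM of Timp1 before TMM scaling differed between the mice. It was 2.61 ± 0.587 with vehicle and 3.28 ± 0.357 with atorvastatin. For Mmp2 this quantity was 0.879 ± 0.0523 and 0.835 ± 0.0903, and for Mmp12 0.727 ± 0.0195 and 0.692 ± 0.0457.

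**Figure D4:**
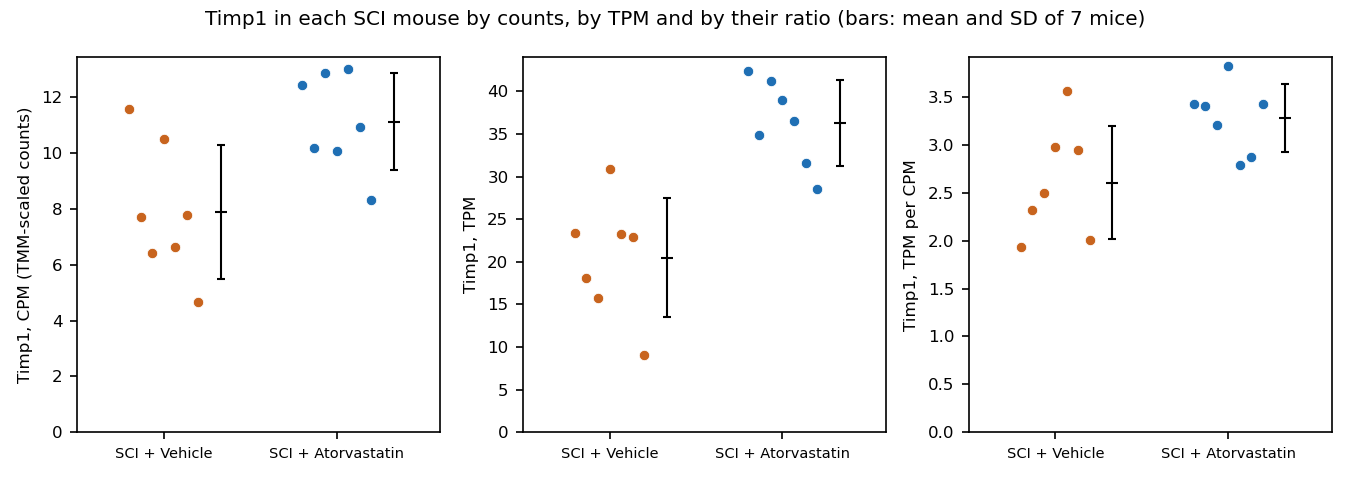
Timp1 in each SCI mouse as CPM from TMM-scaled counts, as deposited TPM and as TPM per CPM of the same mouse. TPM per CPM uses CPM before TMM scaling. The mean and SD of the 7 mice are beside the points (y axes start at 0). The groups overlap more in CPM (4.66 to 11.55 against 8.33 to 13.01) than in TPM (9.04 to 30.88 against 28.59 to 42.35), and TPM per CPM differs between mice.

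Mmp12 and Mmp14 came next. Mmp12 had a log2 fold change of 0.50 (SE 0.237, 95% interval 0.01 to 0.99, unadjusted p = 0.0460, adjusted p = 0.706). Mmp14 had 0.31 (SE 0.136, 95% interval 0.03 to 0.60, unadjusted p = 0.0313, adjusted p = 0.693), and all 7 SCI + Atorvastatin mice were above the SCI + Vehicle median. Mmp2 followed with 0.43 (SE 0.222, 95% interval -0.03 to 0.89, adjusted p = 0.728) and Mmp16 with 0.22 (SE 0.115, adjusted p = 0.728).

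For the other members the intervals bound the difference. Timp2 had 0.10 (95% interval -0.05 to 0.26), Timp3 0.22 (-0.08 to 0.52), Timp4 -0.07 (-0.34 to 0.19), Mmp15 -0.04 (-0.40 to 0.32) and Mmp17 -0.12 (-0.45 to 0.20). Leaving out SCI + Vehicle replicates 4 and 7, chosen after the data were seen, took Mmp2 from 0.43 to 0.19. Mmp14 went from 0.31 to 0.18 and Timp3 from 0.22 to 0.00, while Timp1 stayed at 0.47 (unadjusted p = 0.0240). In CPM these were the lowest SCI + Vehicle mice for Mmp2, Mmp14 and Timp3, so those values had to fall and their fall supports nothing. These 2 mice had the lowest sums of 6 fibroblast markers, 224 and 177 CPM, beside 557 to 1168 CPM in the other SCI + Vehicle mice and 728 to 1964 CPM in the SCI + Atorvastatin mice. All 6 of these markers had an unadjusted p below 0.05 between the treatments, beside 7.03% of all genes. Their median log2 fold change was 0.94, and none was called. In uninjured cord the sum was 292 and 305 CPM. Of the 6 markers 5 were called higher with atorvastatin and none with vehicle, beside 24.9% and 19.9% of all genes. The part of fibroblasts in the members' values was not tested.

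Set side by side in TPM, which accounts for gene length, the inhibitors outweighed the proteases in every mouse. Timp2 ranked first in all groups. Timp3 came second after injury, at 134 ± 38.1 TPM with vehicle and 157 ± 16.1 TPM with atorvastatin, and its range overlapped with that of Timp4 in the SCI + Vehicle and Uninjured Control mice but not with atorvastatin. Mmp14 and Timp4 were next in the SCI mice, with overlapping ranges. Timp1 and Mmp15 came next, Timp1 first with atorvastatin and Mmp15 first with vehicle, followed by Mmp2, Mmp12, Mmp16 and Mmp17. From Timp1 and Mmp15 on, neighbours overlapped in both SCI groups. The sum of the 6 proteases was 123.55 and 129.65 TPM in the Uninjured Control mice, 136 ± 20.0 TPM with vehicle and 161 ± 19.5 TPM with atorvastatin. The sum of the 4 inhibitors was 346.7 and 404.29 TPM, 580 ± 65.3 TPM and 642 ± 22.7 TPM in the same order. On log2(TPM + 1) the median log2 fold change over all tested genes was 0.49 with vehicle and 0.52 with atorvastatin. A rise in TPM over the Uninjured Control mice was thus not particular to these sums. The ratio of inhibitor to protease TPM was 2.67 and 3.27 in the Uninjured Control mice, 4.31 ± 0.359 with vehicle and 4.03 ± 0.449 with atorvastatin (SD, n = 7), with all 14 SCI mice at 3.23 or above. Mmp14 made up 29.7% and 43.8% of the protease sum in uninjured cord, 46.6% ± 4.58 with vehicle and 49.8% ± 3.57 with atorvastatin.

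Among the injured mice, 2 pairs of members varied together. Over the 45 pairs, correlations were taken in 14 SCI mice on log2(CPM + 0.5) after each group's mean was removed, with permutation within groups (100000 resamples, two-sided). Mmp2 and Timp3 had Pearson's r = 0.861 (permutation p = 0.00070, adjusted p = 0.0158) and Spearman's rho = 0.833 (permutation p = 0.00054). Mmp2 and Mmp14 had r = 0.814 (permutation p = 0.00045, adjusted p = 0.0158) and rho = 0.802 (permutation p = 0.00070). No other pair had an adjusted p below 0.05. Within groups r was 0.766 with atorvastatin and 0.899 with vehicle for Mmp2 and Timp3, and 0.641 and 0.874 for Mmp2 and Mmp14. Without the 2 mice farthest from the Mmp2 median r was 0.764 and 0.620. The calls changed with the mice left out. Without SCI + Vehicle replicate 7 r was 0.807 for Mmp2 and Timp3 (adjusted permutation p = 0.0832) and 0.736 for Mmp2 and Mmp14 (adjusted permutation p = 0.115), while both pairs passed by rho (adjusted permutation p = 0.0410 each). Without replicate 4 both passed by r (adjusted permutation p = 0.0407 each) and neither by rho (adjusted permutation p = 0.0576 each). Without replicates 4 and 7 no pair passed by either measure, and r was 0.707 for Mmp2 and Timp3 (adjusted permutation p = 0.294) and 0.753 for Mmp2 and Mmp14 (adjusted permutation p = 0.216). On log2(TPM + 1) no pair passed by either measure.

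**Figure D5:**
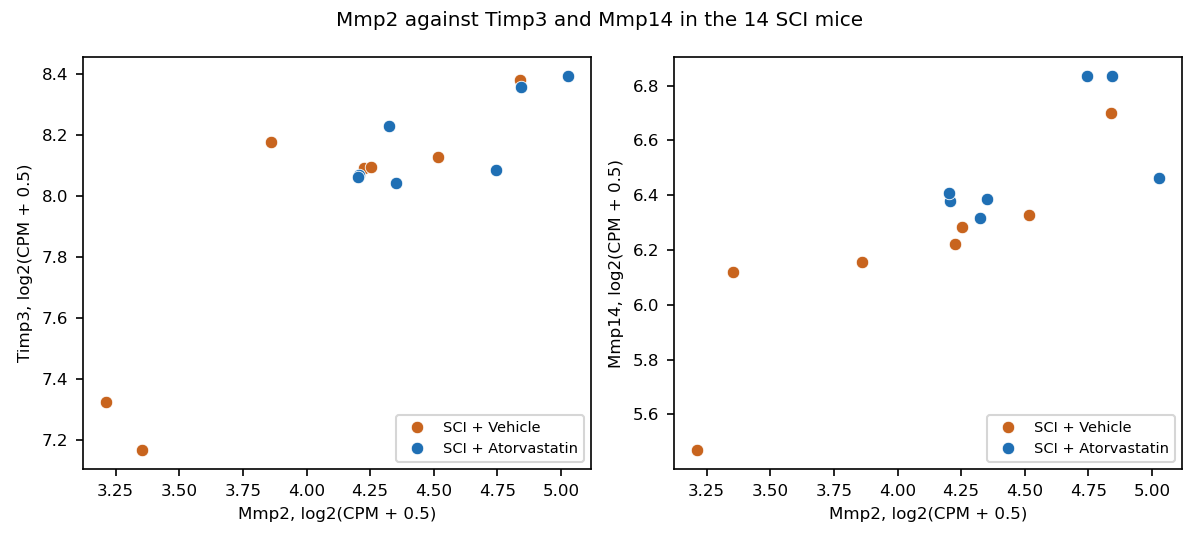
Mmp2 against Timp3 (left) and Mmp14 (right) in the 14 SCI mice, as log2(CPM + 0.5), coloured by treatment. SCI + Vehicle replicates 4 and 7 lie at the low end of Mmp2 and Timp3, and SCI + Vehicle replicate 7 alone at the low end of Mmp14.

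The rest of the family was mostly without counts in uninjured cord, as were many other genes. Of all 24411 genes, 12732 and 12356 had counts in Uninjured Control replicates 1 and 2. Of 17 other metalloproteinases 13 were without counts in both of these libraries, and 9 passed the filter. Mmp7, among the 13, had no counts in any SCI mouse either. With vehicle 5 of these 9 were called higher and none lower, beside 19.9% and 9.91% of all genes, and with atorvastatin 5 higher and 1 lower, beside 24.9% and 14%. The 5 called higher (Mmp3, Mmp8, Mmp11, Mmp13 and Mmp28) had no counts in uninjured cord and passed the filter through the SCI mice alone, so they had to differ and their calls support nothing. Mmp11, a stromelysin by name, had 0 TPM in uninjured cord, 1.4 to 4.43 TPM with vehicle and 2.24 to 9.04 TPM with atorvastatin. In the SCI + Vehicle mice Mmp28, or epilysin, had a median of 2.76 TPM (1.53 to 7.51). The neutrophil collagenase Mmp8 had a median of 1.62 TPM (0.25 to 9.7) and the collagenase Mmp13 one of 0.76 TPM (0.33 to 17.15), so their highest values were far above the middle mouse. The gene called lower with atorvastatin was the neuronal Mmp24 (log2 fold change -0.79, adjusted p = 0.0176). None was called between the treatments, and Mmp11 had the only unadjusted p below 0.05 (log2 fold change 0.70, unadjusted p = 0.00992).

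Regulators of the proteases moved in both directions. Of 15 tested genes, 6 were called higher and 5 lower with vehicle, beside 19.9% and 9.91% of all genes. With atorvastatin 7 of the 15 were called higher and 4 lower, beside 24.9% and 14%. Reck and Plau, among those called higher in both, had no counts in uninjured cord and had to differ. Serpina3n, a serpin that astrocytes make after injury, rose from 65.16 and 68.38 TPM to 484 to 691 TPM with vehicle (log2 fold change 3.03, adjusted p = 2.01e-05). A2m, a scavenger of proteases in plasma and tissue, rose from 11.37 and 28.49 TPM to 192 to 296 TPM (3.36, adjusted p = 6.56e-05). Plau, the urokinase that cuts plasminogen to plasmin, had 0 TPM in uninjured cord and 23.7 to 50.03 TPM with vehicle. Reck, a membrane inhibitor of Mmp14 and Mmp2, also had 0 TPM and had 1.98 to 9.67 TPM with vehicle.

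On the lower side Plg, the plasminogen made by liver, had 35.82 and 104.07 TPM in uninjured cord and at most 0.74 TPM in the SCI mice, and was called lower in both comparisons. It moved with the liver markers, of which 7 of 7 were called lower in both comparisons, beside 9.91% and 14% of all genes. The testican proteoglycans, which bind protease and matrix, also fell with vehicle, with log2 fold changes of -0.86 for Spock2 (adjusted p = 0.00258), -0.61 for Spock1 (adjusted p = 0.0237) and -0.51 for Spock3 (adjusted p = 0.0371). In both comparisons 5 of 7 neuron markers were called lower as well, beside the same shares of all genes.

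The 14 ADAM and ADAMTS proteases of the list shed surface proteins and cut proteoglycans. With vehicle 5 were called higher and none lower, beside 19.9% and 9.91% of all genes. With atorvastatin 7 were called higher and none lower, beside 24.9% and 14%. Of the proteases called higher in both, Adam8, Adam33 and Adamts15 had no counts in uninjured cord and had to differ. Adam17, the enzyme that releases tumour necrosis factor and a target of Timp3, rose from 2.21 and 6.27 TPM to 19.15 to 30.47 TPM with vehicle (log2 fold change 2.12, adjusted p = 0.000311). Adam8, found on myeloid cells, had 0 TPM in uninjured cord and 12.05 to 19.89 TPM with vehicle. Adam33 (1.76 to 5.58 TPM) and Adamts15 (1.28 to 3.89 TPM) were likewise at 0 TPM in uninjured cord. None of the regulators or of these proteases was called between the treatments.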

How the data were processed

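RNA-seq of spinal cord from 16 mice was analysed, grouped by the sample labels. For every gene the authors deposited a whole-number count, not normalized, and a TPM value, which they scaled for gene length and library. The submitters' processing notes name FastQC 0.12.1, Trimmomatic 0.38, STAR 2.5.4b, RSEM 1.3.1 and mm10, and the step that made the counts whole numbers is not given in the sources used here. Library sizes were the sums over all 24411 genes, 14823292 to 25579826, so that 3 counts are 0.117 to 0.202 CPM before TMM scaling.

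Counts were fitted pair by pair with edgeR 4.0.16 in R 4.3.3 (TMM, quasi-likelihood test) on genes whose mean TPM passed 1 in any group, and p-values were adjusted by the Benjamini-Hochberg method over all 16091 of them. SE is the log2 fold change divided by the root of F. Calls between the treatments used an unadjusted p, as in the study's methods. CPM in the text are TMM-scaled unless said otherwise, and TPM per CPM uses CPM before TMM scaling. Alternatives used DESeq2 1.42.0, limma 3.58.1 (voom and log2 TPM), other filters, all 3 groups in 1 fit, the replicate number as a block and each mouse left out. The fits were tested on simulated data. Each mouse is a separate animal by its label. No 2 libraries were alike beyond the others (highest correlation 0.981).

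The members, the lists of related genes and the cell markers were chosen with earlier results of these data known. All members are described. From the lists, at most 4 genes called in each direction were named, by the smallest p in SCI + Vehicle vs. Uninjured Control, and Mmp24, Syn1, Syn2 and Syn3 were named after their values were seen. Positions and coding sequences are those of GRCm38 (GENCODE M21). Plots were made in Python 3.11.15 with matplotlib 3.10.9.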

Additional observations from a re-analysis of the deposited data

Results flagged for a closer look

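Of 40 groups of 7 mice (10 members, 2 treatments, TPM and counts), 1 held a mouse that stood apart from the others. Chance would give about 1 in 20, so 1 of 40 is no more than chance would give. The Mmp14 TPM of SCI + Vehicle replicate 7 was 37.61, the next mouse had 60.24 and the highest 75.46, so the gap was 0.598 of the range. In CPM, which was not part of the check, replicate 7 had 43.8, the next mouse 69.0 and the highest 103.5. Without this mouse the log2 fold change of Mmp14 between the treatments was 0.22 in place of 0.31. Dropping the lowest SCI + Vehicle mouse had to lower this value. The same mouse had the lowest sum of fibroblast markers (177 CPM) and the highest sums of neuron (7715 CPM) and oligodendrocyte markers (18796 CPM) of the SCI mice. The part of these cells in the value was not tested.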

How the results depend on the processing

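In SCI + Vehicle vs. Uninjured Control 6 members were called, but voom with a weight for each group called 0 (0.814% of all genes). With a mean TPM above 1 required in every condition 2 of 7 tested were called (19.1%), and with no filter on low values 4 (23%). Limma on log2(TPM + 1) or log2(TPM + 0.1) called 4, where Mmp15 and Mmp17 were lost (27.7% and 30.6%). Without SCI + Vehicle replicates 4 and 7, chosen after the data were seen, 4 were called (27.2%). There Mmp15, Mmp17 and Timp2 were lost and Timp3 was added. With each SCI + Vehicle mouse left out 3 to 5 members were called (3 without replicate 2, 23.9%). Of the 9 in SCI + Atorvastatin vs. Uninjured Control, voom called 0 (0.901%), limma on either log2 TPM 6 (39.3% and 41.8%), and 8 to 9 were called with each mouse left out. Between the treatments limma on log2(TPM + 1) or log2(TPM + 0.1) called 1 member (Timp1) in place of 0, and 0.124% and 0.112% of all genes, and each mouse left out gave 0. The 2 pairs correlated by Pearson's r became 0 without SCI + Vehicle replicate 7, without replicates 4 and 7, and on log2(TPM + 1), and were 2 without replicate 4. A fit with the replicate number as a block called 0 members in SCI + Vehicle vs. Uninjured Control, 0 in SCI + Atorvastatin vs. Uninjured Control and 0 between the treatments, and 0.168%, 0% and 0.0497% of all genes. The labels do not say that numbers pair mice, same-numbered SCI mice correlated between -0.175 and 0.102, and 0 of 7 correlated best with their own number.

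Direction turned for 3 members. With vehicle against the Uninjured Control group Mmp17 had 0.093 without Uninjured Control replicate 2 and ranged from -2.23 to 0.093 over the mice left out, and Timp4 ranged from -0.48 to 1.00. With atorvastatin Timp4 had -0.0095 in DESeq2 and -0.0096 with its size factors in edgeR, and ranged from -0.54 to 0.94. Between the treatments Mmp15 had 0.0041 with voom and 0.075 without SCI + Vehicle replicates 4 and 7, and ranged from -0.15 to 0.029, and Timp4 ranged from -0.14 to 0.027. For these values the cause was not tested. On log2(TPM + 1) the median over all genes was 0.49 with vehicle and 0.52 with atorvastatin, against 0.17 and 0.21 on counts. With 1 Uninjured Control mouse left out, the other is assumed to vary like the SCI mice. The 2 Uninjured Control mice limit every value against them. The limit of 0.143 CPM (3 counts, TMM-scaled) covers counting error only, so higher levels may also have gone unseen there.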
